A study of Mus musculus with 12 samples.

Results

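RAW264.7 is a mouse macrophage-like cell line. The question here was whether silencing Synbindin, the protein encoded by Trappc4, altered the transcriptional response of these cells to lipopolysaccharide (LPS). All 12 of the 12 RNA-seq libraries enter this comparison, in 4 groups of 3. The control cells carried a control siRNA and the silenced cells an siRNA against Synbindin, and each kind was collected without LPS (0 h) or after 4 h in LPS at 100 ng/ml. All cells were of passages 3 to 5, and the labels do not state that replicates were transfected independently. The p-values therefore reflect the scatter among these libraries, which may be technical. An siRNA lowers a transcript without removing it, and the line is a transformed macrophage-like culture and not a primary macrophage. Macrophage markers were expressed (Cd68 up to 488 and Csf1r up to 350 FPKM), while C1qa, C1qb and C1qc, which many tissue macrophages express, were listed at 0. No marker of T and NK cells, neutrophils, fibroblasts or epithelium passed the filter, and Ms4a1, Trac, Ly6g, Mpo, Krt8 and Dcn were listed at 0 throughout. Of the B cell markers 1 was tested, Ighm, at up to 20.5 FPKM, and the median of that list was its interaction of -0.13.

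For each gene the LPS response was taken as the level at 4 h minus the level at 0 h on the log2(FPKM + 1) scale, where FPKM is the fragment number scaled to transcript length and library size; the added 1 understates changes of low genes. In bulk RNA fewer cells expressing a gene and less RNA per cell cannot be told apart. The interaction is the response of silenced cells minus the response of control cells. The same number is the silenced-to-control difference after LPS minus that difference without LPS, so a positive interaction can come from a gap that opened with LPS or from a gap that closed. Interactions are given ± SE from limma, group levels as mean ± SD over 3 libraries, and a gene was called at a Benjamini-Hochberg adjusted p under 0.05 over all genes tested.

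LPS binds Toll-like receptor 4 with its partners MD-2 and CD14. Adaptor proteins then pass the signal to NF-kB and MAP kinases, which induce cytokine and chemokine genes within hours, and to interferon regulatory factors, which induce interferon-beta and, through it, the interferon-stimulated genes. Synbindin is a subunit of the TRAPP complexes, which tether transport vesicles on the way from the endoplasmic reticulum to the Golgi, and it has also been described as a scaffold for ERK signalling. Feedback proteins such as the RNase Regnase-1, encoded by Zc3h12a, limit the response by degrading cytokine transcripts.

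Trappc4, the silenced gene, did not overlap between silenced and control libraries at either time. Control libraries held 14.1, 13.1 and 12.5 FPKM at 0 h and 13.8, 15.7 and 9.45 FPKM at 4 h. Silenced libraries held 4.35, 7.17 and 6.15 FPKM at 0 h and 5.86, 7.71 and 8.26 FPKM at 4 h. All silenced values lay below all control values of that time. Trappc4 overlaps Rps25, a ribosomal protein gene on the other strand at up to 179.7 FPKM, and whether counting used strand is not given in the sources used here. The interaction of Trappc4 itself was 0.33 ± 0.27 on the log2 scale (95% interval -0.27 to 0.93, limma adjusted p = 0.683), so a change of the knockdown between the times was not resolved.

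Of 13078 genes tested, limma called 8 (0.0612%), 5 with a positive (0.0382%) and 3 with a negative interaction (0.0229%). They fell into a few shapes. Csf2, Tnfsf15, Tnf and Zc3h12a were induced by LPS in both kinds of cell and more so in silenced cells. Kpna1 and Gas2l3 differed between silenced and control cells without LPS and had nearly equal means after it. Dynll1 was higher in silenced cells without LPS and lower in them after it, where the difference did not pass adjustment. The eighth was Gm26377, a predicted miRNA gene inside Eef1a1.

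For 2 of the genes with a stronger induction, Tnf and Zc3h12a, the 250 bases before the RefSeq start (build GRCm38.p6, each gene on the minus strand) are shown, because both genes rose more in silenced cells. Their positions are chr17:35202008-35202257 for Tnf and chr4:125127882-125128131 for Zc3h12a.
Tnf: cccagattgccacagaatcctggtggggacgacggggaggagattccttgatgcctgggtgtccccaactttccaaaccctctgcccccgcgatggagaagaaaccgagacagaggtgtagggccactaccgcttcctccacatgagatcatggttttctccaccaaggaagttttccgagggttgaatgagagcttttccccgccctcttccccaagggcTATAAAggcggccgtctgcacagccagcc
Zc3h12a: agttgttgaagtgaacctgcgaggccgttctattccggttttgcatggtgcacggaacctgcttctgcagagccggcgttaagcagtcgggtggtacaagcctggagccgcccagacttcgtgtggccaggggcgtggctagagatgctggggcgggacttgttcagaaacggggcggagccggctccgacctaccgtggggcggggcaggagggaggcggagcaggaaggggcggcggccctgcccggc
Capitals mark matches, on either strand, to any of 4 motifs: the NF-kB consensus, the AP-1 motif TGANTCA, the TATA box TATAAA and the interferon-stimulated response element, searched as GAAA, any 2 bases, GAAA. There was 1 match, the TATA box of Tnf, whose first base lies 29 bases before the start, so no matches overlap. Over all 32851 RefSeq windows of this length, 3.9% held the NF-kB consensus, 6.75% the AP-1 motif, 12.4% the TATA box and 2.98% the response element. A window without a match says only that these letters are not in it.

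Csf2 (ENSMUSG00000018916, GRCm38 chromosome 11, 54247271 to 54249667) encodes the growth factor GM-CSF, which acts on myeloid cells. All 6 untreated libraries list it at 0. With LPS the values were 9.84, 12.6 and 6.95 FPKM in control and 58.7, 46.0 and 38.4 FPKM in silenced libraries. The groups did not overlap after LPS, and the lowest silenced library lay above the highest control library. The interaction was 2.19 ± 0.26 (95% interval 1.61 to 2.76, adjusted p = 0.0161), the highest of the called genes. In a fit of the 6 LPS libraries alone the same difference was 2.19 ± 0.22 with adjusted p = 0.0522; in that fit the 4 h differences of Tnf and Tnfsf15 also had adjusted p = 0.0522 and that of Zc3h12a 0.0563. With a pseudocount of 0.1 it was 2.29 with adjusted p = 0.0575.

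Tnfsf15 (ENSMUSG00000050395, chromosome 4) encodes TL1A, a ligand of the TNF family that co-stimulates lymphocytes. Untreated levels were between 0 and 0.15 FPKM in both kinds of cell. The values after LPS were 4.73, 5.499 and 6.23 FPKM in control and 19.8, 15.3 and 17.7 FPKM in silenced libraries. The groups did not overlap after LPS. The interaction was 1.42 ± 0.17 (adjusted p = 0.0161), and it was 1.01 with a pseudocount of 0.1 (adjusted p = 0.377).

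Tnf (ENSMUSG00000024401, chromosome 17, 35199381 to 35202007) encodes the central inflammatory cytokine of the early LPS response. At 0 h the values were 50.9, 47.0 and 53.3 FPKM in control and 44.7, 53.6 and 46.7 FPKM in silenced libraries, which overlap. At 4 h values were 1100, 1196 and 1258 FPKM in control and 1982, 2093 and 2054 FPKM in silenced libraries, which do not. The ratio of the group means at 4 h and 0 h was 23.5-fold in control and 42.2-fold in silenced cells. The interaction was 0.85 ± 0.12 (95% interval 0.59 to 1.11, adjusted p = 0.0344).

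Zc3h12a (ENSMUSG00000042677, chromosome 4) encodes Regnase-1, an RNase that degrades transcripts of cytokines. Untreated values were 4.86, 5.78 and 5.35 FPKM in control and 4.49, 4.78 and 4.37 FPKM in silenced libraries. With LPS the values were 26.2, 24.7 and 24.5 FPKM in control and 43.5, 40.6 and 38.7 FPKM in silenced libraries. Silenced libraries were the lower ones at 0 h and the higher ones at 4 h, without overlap at either time. The means rose 4.72-fold in control and 9.003-fold in silenced cells, and the interaction was 0.87 ± 0.12 (adjusted p = 0.0271). A cytokine transcript and the transcript of an RNase that limits cytokines thus had the same direction of interaction.

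Kpna1 (ENSMUSG00000022905, chromosome 16, 35978750 to 36037131, plus strand) encodes importin alpha 5, an adaptor that carries cargo with a nuclear localisation signal into the nucleus. Without LPS values were 13.8, 14.7 and 15.5 FPKM in control and 6.57, 6.67 and 6.54 FPKM in silenced libraries. The values after LPS were 11.5, 11.4 and 13.0 FPKM in control and 11.3, 11.4 and 11.4 FPKM in silenced libraries. The groups were far apart at 0 h and overlapped at 4 h. LPS lowered Kpna1 in control cells (-0.28 ± 0.08, adjusted p = 0.0115) and raised it in silenced cells (0.70 ± 0.08, adjusted p = 1.96e-05). The interaction was 0.98 ± 0.11 (adjusted p = 0.0161). An antisense RNA, Gm15564, overlaps Kpna1 and reached 23.0 FPKM in control replicate 2 at 0 h and at most 0.27 FPKM in the other libraries, while Kpna1 in that replicate lay between the other 2 control libraries.

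Gas2l3 (ENSMUSG00000074802, chromosome 10, minus strand) encodes a linker of actin and microtubules. At 0 h the values were 8.59, 7.80 and 11.7 FPKM in control and 29.3, 26.6 and 32.4 FPKM in silenced libraries. At 4 h values were 11.2, 11.7 and 10.46 FPKM in control and 11.7, 11.4 and 10.9 FPKM in silenced libraries. The excess of silenced cells at 0 h was not seen at 4 h, where the groups overlapped. LPS lowered Gas2l3 in silenced cells (-1.30 ± 0.13, adjusted p = 8.13e-06), while in control cells the response was 0.24 ± 0.13 (adjusted p = 0.139). The interaction was -1.54 ± 0.18 (adjusted p = 0.0161).

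Dynll1 (ENSMUSG00000009013, chromosome 5, 115297110 to 115300999) encodes a dynein light chain, a small hub protein of the microtubule motor. Untreated values were 19.2, 16.3 and 18.02 FPKM in control and 39.8, 40.9 and 34.8 FPKM in silenced libraries. With LPS the values were 32.3, 18.6 and 29.6 FPKM in control and 17.6, 18.1 and 17.2 FPKM in silenced libraries. Control replicate 2 at 4 h stood close to the silenced libraries, although the groups did not overlap at either time. The silenced-to-control difference was 1.07 ± 0.16 at 0 h (limma adjusted p = 0.0283) and -0.54 ± 0.16 at 4 h (adjusted p = 0.179). LPS raised Dynll1 in control cells (0.53 ± 0.16, adjusted p = 0.0198) and lowered it in silenced cells (-1.08 ± 0.16, adjusted p = 0.000214), so the responses had opposite signs. The interaction was -1.61 ± 0.23 (adjusted p = 0.0388).

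Gm26377 (ENSMUSG00000076138, chromosome 9) lies inside Eef1a1, an abundant translation elongation factor gene on the same strand, so fragments of Eef1a1 may have been assigned to it and its value is uncertain. Its means were 1461 and 2004 FPKM in control and silenced cells at 0 h and 2405 and 2183 FPKM at 4 h, with an interaction of -0.59 ± 0.09 (adjusted p = 0.0388). Eef1a1 itself had an interaction of -0.29 ± 0.08 (adjusted p = 0.275).

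**Figure D1:**
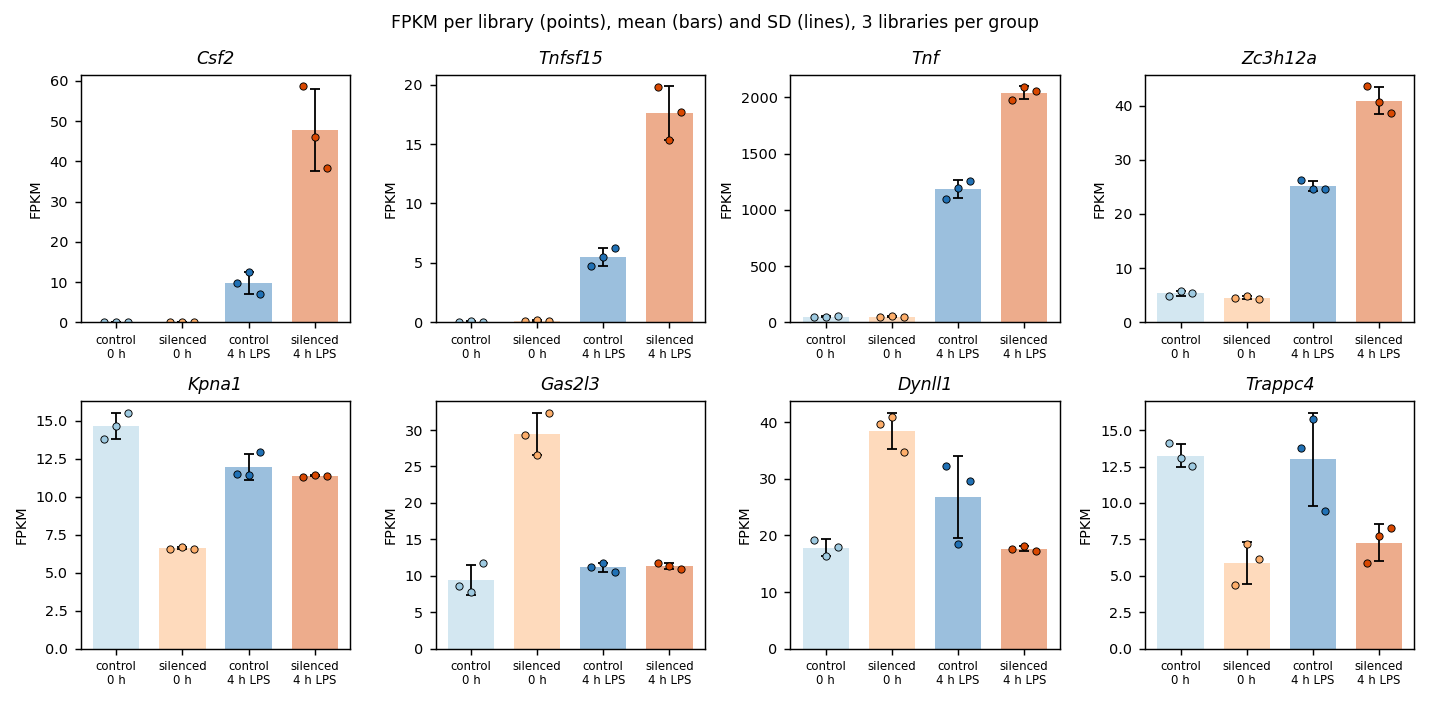
FPKM (linear axes from 0) of the 7 called genes with an established name and of Trappc4 in each group; points are libraries, bars group means and lines SD over 3 libraries. Csf2, Tnfsf15, Tnf and Zc3h12a separate only weakly or not at all at 0 h and clearly at 4 h, with Tnf at 1185 and 2043 FPKM, while Kpna1 and Gas2l3 separate at 0 h and meet at 4 h.

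The call count depended on single libraries of the LPS-treated groups. Without control replicate 1 or without silenced replicate 1, 2 or 3 at 4 h limma called 0 genes, with 1206, 1415, 1232 and 1362 genes at an unadjusted p under 0.05, and without control replicate 3 at 4 h it called 20. In the fits with 0 calls the limma adjusted p of Kpna1 was 0.067, 0.054, 0.060 and 0.051, in the same order. The other counts were 4 without control replicate 2 at 4 h, 5 without control replicate 1 or 2 or silenced replicate 2 at 0 h, 8 without control replicate 3, 7 without silenced replicate 1 and 6 without silenced replicate 3 at 0 h. Kpna1, Gas2l3 and Csf2 were called in 8 of these 12 fits, Tnfsf15 in 7, Tnf and Zc3h12a in 2, and Dynll1 and Gm26377 in 1. The size of the interaction moved less than the call: over the 12 fits it ran from 1.98 to 2.37 for Csf2, 1.33 to 1.51 for Tnfsf15, 0.80 to 0.92 for Tnf, 0.82 to 0.92 for Zc3h12a, 0.94 to 1.04 for Kpna1, -1.70 to -1.43 for Gas2l3, -1.84 to -1.46 for Dynll1 and -0.63 to -0.56 for Gm26377. Control replicate 2 at 4 h stood apart from the other 11 libraries on the second principal component (33.5, against -11.1 to 11.6), which held 4.63% of the variance.

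Beyond the called genes, those with the smallest p in each direction give the range of patterns that came near the threshold; none of them passed. On the positive side Cxcl2, a neutrophil attractant, stood near 0 FPKM without LPS. After LPS it was 220, 208 and 283 FPKM in control and 493, 487 and 505 FPKM in silenced libraries, with an interaction of 1.12 ± 0.23 (adjusted p = 0.140). Nfkbiz, whose protein is a nuclear cofactor of NF-kB for secondary response genes, had 21.8 ± 1.72 and 36.3 ± 1.45 FPKM after LPS (interaction 0.88 ± 0.20, adjusted p = 0.184). Slfn4, a member of the Schlafen family that interferon induces in macrophages, had 284 ± 40.8 and 438 ± 31.3 FPKM after LPS (0.76 ± 0.17, adjusted p = 0.176). Each of these genes overlapped between the groups at 0 h and did not at 4 h.

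Rnf213, which encodes a large interferon-induced ubiquitin ligase, had the other shape. Without LPS values were 58.2, 57.7 and 50.9 FPKM in control and 31.6, 34.5 and 31.1 FPKM in silenced libraries, a gap without overlap. After LPS the groups overlapped, at 273 ± 69.2 and 314 ± 31.0 FPKM, and the interaction was 0.99 ± 0.21 (adjusted p = 0.157). Themis2, a signalling scaffold of macrophages and B cells, responded to LPS by 0.12 ± 0.08 in control and 0.69 ± 0.08 in silenced cells (interaction 0.57 ± 0.12, adjusted p = 0.138). The small nucleolar RNA Snord104 had LPS responses of -0.73 ± 0.22 and 0.85 ± 0.22 and an interaction of 1.57 ± 0.30 (adjusted p = 0.138). Lipg, an endothelial-type lipase, had an interaction of 0.70 ± 0.15 (adjusted p = 0.166) that was -0.17 with a pseudocount of 0.1; its untreated level was already higher in silenced cells (0.11 ± 0.05 and 0.46 ± 0.07 FPKM).

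On the negative side all of the named genes nearest the threshold except Gpr183 rose with LPS in control cells and had a lower response in silenced cells. Cnbp, a nucleic acid-binding zinc finger protein gene, held 62.9, 62.8 and 59.2 FPKM in control and 77.1, 80.9 and 74.6 FPKM in silenced libraries at 0 h. At 4 h it held 110, 108 and 100 FPKM in control and 91.3, 91.1 and 86.7 FPKM in silenced libraries. Silenced libraries were all higher at 0 h and all lower at 4 h, with an interaction of -0.56 ± 0.09 (adjusted p = 0.0882).

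The same crossing was seen in Csnk1g2, a casein kinase (-0.99 ± 0.16, adjusted p = 0.0882), Tmem120a, a membrane protein gene (-0.92 ± 0.16, adjusted p = 0.0932), and Eif3b, a translation initiation factor (-0.63 ± 0.11, adjusted p = 0.106). It was also seen in the chaperonin subunit Tcp1 (-0.65 ± 0.11) and the transcription elongation factors Supt5 (-0.72 ± 0.13) and Ell2 (-0.59 ± 0.11). Responses to LPS in control and silenced cells were 0.81 and -0.17 for Csnk1g2, 0.81 and -0.12 for Tmem120a and 0.72 and 0.09 for Eif3b. Of these the responses in control cells passed and those in silenced cells did not. Supt5 rose in control and fell in silenced cells (0.45 and -0.27), as did P2ry6 (0.34 and -0.27), and Ell2 rose in both (1.94 and 1.35). P2ry6, a receptor for extracellular nucleotides, was higher in silenced cells at 0 h (16.7 ± 0.86 and 24.4 ± 1.24 FPKM) and overlapped at 4 h (interaction -0.61 ± 0.11, adjusted p = 0.129).

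Gpr183, the oxysterol receptor that guides immune cell migration, was the exception in this group because LPS lowered it in both kinds of cell. Untreated levels were 80.2 ± 0.68 and 79.3 ± 7.44 FPKM. The values after LPS were 21.1, 22.3 and 27.8 FPKM in control and 12.4, 12.7 and 14.0 FPKM in silenced libraries, and the interaction was -0.79 ± 0.15 (adjusted p = 0.138).

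Taking the 12 genes with a positive and the 12 with a negative interaction together, the larger silenced-to-control difference lay after LPS for 10 of the 12 positive genes and without LPS for 7 of the 12 negative genes. The difference changed sign between the times in 8 positive and 10 negative genes. Silenced and control libraries did not overlap at 0 h in 4 positive and 11 negative genes, beside 18.2% of all genes tested (silenced higher in 9.85%, lower in 8.35%). At 4 h they did not overlap in 10 and 10, beside 18.9% (7.62% and 11.3%). These genes were chosen by the interaction, so the counts describe them and test nothing. Tcp1, P2ry6 and Gpr183, and among genes named below Irf7, Nox1, Tirap, Cebpb, Cyp51, Tgm2 and Dusp1, each overlap an expressed gene on the other strand, so the limit given for Trappc4 holds for them too. It also holds for Il1b, Rnf213, Tapbp and Gpi1, whose partners on the other strand reached 2.48 to 7.21 FPKM. Such partners of Supt5, Ccnd1, Tmed10, Sdha and Atp6v1h reached 1.08 to 1.91 FPKM. Tapbp and Pkm also overlap a gene on the same strand, at up to 19.6 and 63.2 FPKM, so fragments of these may have been assigned to them.

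**Figure D2:**
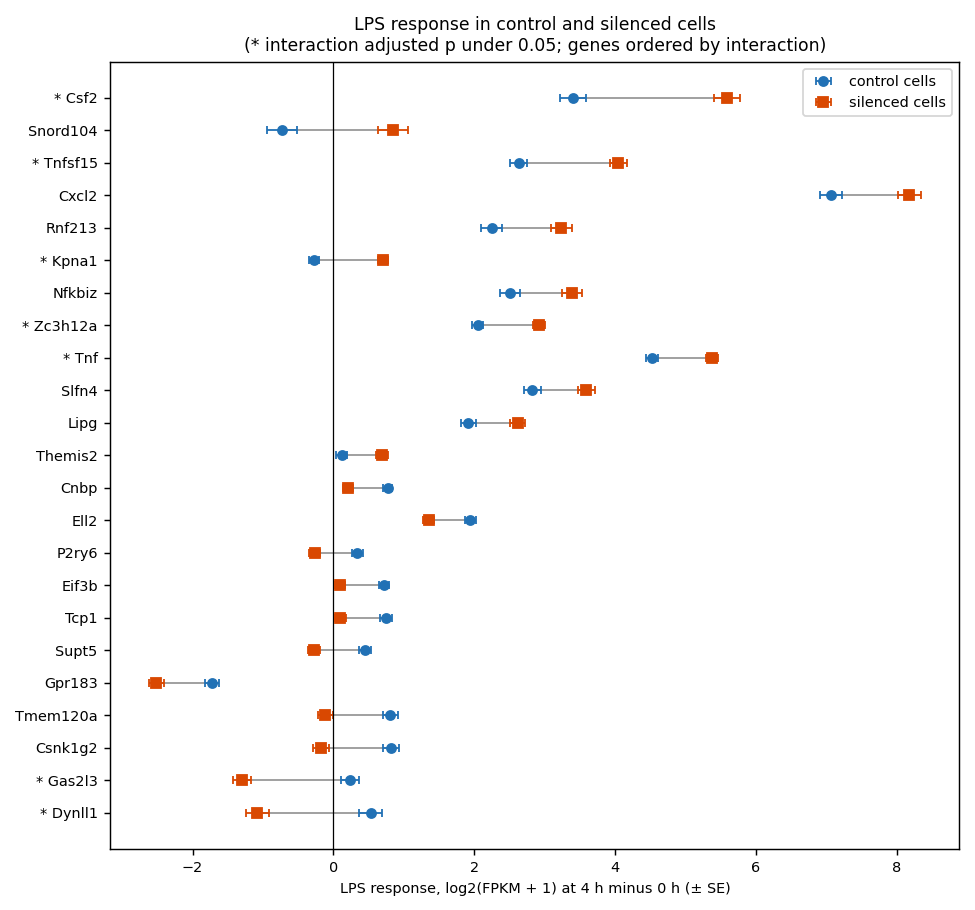
LPS response (log2(FPKM + 1) at 4 h minus 0 h, ± SE) of control cells (circles) and silenced cells (squares) for 23 of the 12 positive and 12 negative genes described, ordered by interaction; asterisks mark adjusted p under 0.05. Csf2 runs from 3.40 in control to 5.58 in silenced cells, and Dynll1 from 0.53 to -1.08.

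**Figure D3:**
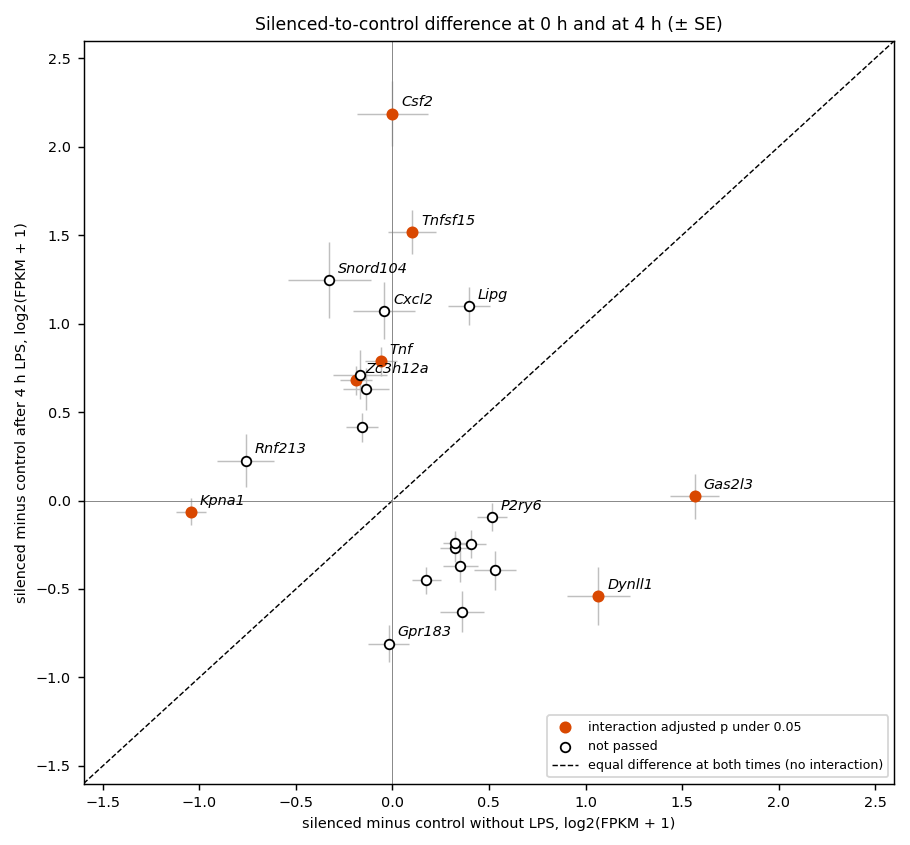
Silenced minus control difference without LPS (horizontal) and after 4 h of LPS (vertical), both on the log2(FPKM + 1) scale with SE, for the same 23 genes; the dashed line marks equal differences, and filled points have an adjusted p under 0.05. Csf2, Tnfsf15, Tnf and Zc3h12a lie near the vertical zero line above the diagonal, and Kpna1 and Gas2l3 lie near the horizontal zero line at -1.04 and 1.57.

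Over all genes tested the median interaction was -0.03, 45.2% of values were positive, and 90% of the values lay between -0.53 and 0.53. The median 95% interval reached 0.45 to either side. For a typical gene an estimate had to exceed this size to reach an unadjusted p under 0.05, and a larger one to pass adjustment. At an unadjusted p under 0.05 there were 1480 genes (11.3%), 538 positive (4.11%) and 942 negative (7.2%). Of these 36.4% were positive, against 47.9% with median-ratio scaling and 47.8% with quantile normalization. The gene lists below are read against these values, and list members are counted from the limma gene tests. Leaving out 1 library turned the sign of the median of 8 lists: receptor and adaptor, NF-kB, MAP kinase, ERK immediate-early, lipid mediator, NRF2, G1/S and alternative activation genes.

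The receptor and adaptor list gave no call. Of 29 tested members 14 had a positive interaction, the median was -0.01, and 1 was at an unadjusted p under 0.05. That gene was Tbk1, the kinase that activates interferon regulatory factor 3, with LPS responses of 0.26 ± 0.10 in control and 0.73 ± 0.10 in silenced cells (interaction 0.47 ± 0.14, adjusted p = 0.292). Next came Tirap, the adaptor that recruits MyD88 to the receptor (0.29 ± 0.13, adjusted p = 0.441). The receptor gene Tlr4, named here after its values were seen, was too variable to read. It ranged from 2.18 to 19.1 FPKM in control and from 2.79 to 15.7 FPKM in silenced libraries at 0 h, and its interaction was -1.01 ± 1.04 (adjusted p = 0.7503).

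Kinase and transcription factor lists downstream were centred near the median of all genes. Of 25 tested MAP kinase cascade components 14 were positive (median 0.03, 1 at an unadjusted p under 0.05, 0 called). The members with the smallest p were Map2k2, an ERK kinase (-0.45 ± 0.15, adjusted p = 0.326), and Map3k8, the kinase Tpl2 that links LPS to ERK (0.50 ± 0.23, adjusted p = 0.442). Of 23 tested ERK immediate-early and feedback genes 12 were positive (median 0.00), with 4 positive and 2 negative at an unadjusted p under 0.05 and 0 called. Jund had an interaction of -0.47 ± 0.12 (adjusted p = 0.239), and the ERK phosphatase gene Dusp6 0.57 ± 0.19 (adjusted p = 0.314). Dusp1 (-0.25 ± 0.27) and Egr1 (0.08 ± 0.25) had intervals that include 0, and the value of Egr1 turned negative in 3 of the 12 fits without 1 library.

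Among NF-kB subunits and feedback genes Zc3h12a was the 1 called of 29 tested, 15 were positive, and the median was 0.02. At an unadjusted p under 0.05 there were 5 positive and 2 negative members. The inhibitor Nfkbia held 166 ± 4.58 and 128.5 ± 19.2 FPKM in control and silenced cells at 0 h, without overlap, and 639 ± 72.2 and 712 ± 83.1 FPKM at 4 h, with overlap (interaction 0.53 ± 0.17, adjusted p = 0.301). The prostaglandin-forming cyclooxygenase gene Ptgs2 held 49.0 ± 10.9 and 118.6 ± 3.44 FPKM after LPS. It was also higher in silenced cells at 0 h (0.59 ± 0.18 and 1.33 ± 0.43 FPKM), and its interaction was 0.74 ± 0.23 (adjusted p = 0.2997). At such low untreated levels the added 1 understates the gap at 0 h. The interaction was 0.25 at the lowest among the alternatives that keep all libraries. Tnfaip3, which encodes the ubiquitin editor A20, varied widely in control cells after LPS (26.4 ± 13.8 FPKM) and had an interaction of 0.28 ± 0.39.

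Inflammatory cytokines held 3 of the 8 called genes. Of 23 tested members 3 were called, each with a positive interaction, and 21 were positive. The list median was 0.48, 11 members were positive and 0 negative at an unadjusted p under 0.05, and leaving out 1 library moved the median between 0.40 and 0.65. LPS raised 23 of the 23 in control and in silenced cells (15.3% and 13% of all genes rose). Members near 0 FPKM without LPS, such as Csf2 and Tnfsf15, passed the filter only through libraries with LPS. For them the direction of the LPS response was set by the filter, so this count describes the list and tests nothing. The called members were Csf2, Tnfsf15 and Tnf. Il1b, which encodes the pyrogenic cytokine interleukin-1 beta, held 554, 494 and 745 FPKM in control and 816, 851 and 1218 FPKM in silenced libraries after LPS, with an interaction of 0.89 ± 0.30 (adjusted p = 0.326). The replicates numbered 3 were the highest in both groups.

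Cytokines at a low level gave wide intervals. Ifnb1, which encodes interferon-beta, was listed at 0 without LPS and held 1.86 ± 0.58 and 3.60 ± 0.72 FPKM after it (interaction 0.69 ± 0.25, adjusted p = 0.343). Il6 held 4.77 ± 2.09 and 6.45 ± 2.40 FPKM after LPS (0.38 ± 0.35), and Il10, an anti-inflammatory cytokine gene, 0.88 ± 0.21 and 1.42 ± 0.51 FPKM (0.35 ± 0.26). For both the spread within a group was near the size of the difference.

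Of 16 tested chemokines 0 were called, 11 were positive, the median was 0.26 and 4 were positive at an unadjusted p under 0.05. Besides Cxcl2, Ccl17, which attracts T cells, held 14.4 ± 1.70 and 27.9 ± 2.64 FPKM after LPS (0.79 ± 0.18, adjusted p = 0.184). Untreated libraries listed Ccl17 at 0 except silenced replicate 2 (0.28 FPKM). Its interaction was 0.31 at the lowest among the alternatives that keep all libraries. After LPS Ccl5 held 215 ± 42.0 and 289 ± 39.6 FPKM (0.59 ± 0.24) and Cxcl10, an interferon-induced chemokine, 121.7 ± 14.9 and 179 ± 13.8 FPKM (0.80 ± 0.50, adjusted p = 0.583). Ccl2, a monocyte attractant also named after its values were seen, held 25.3, 23.7 and 13.3 FPKM in control and 8.36, 11.7 and 6.35 FPKM in silenced libraries at 0 h, without overlap. At 4 h it held 327 ± 21.1 and 385 ± 68.8 FPKM, with overlap, so the gap lay in untreated cells (interaction 1.36 ± 0.34, adjusted p = 0.225). The chemokine median was 0.13 without control replicate 2 at 4 h.

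Late or secondary LPS response genes, which need newly made proteins, had 14 of 18 tested members positive and a median of 0.51, with 7 positive at an unadjusted p under 0.05 and 0 called. This list shares members with the cytokine and chemokine lists, and its median was 0.33 without silenced replicate 3 at 4 h. Hdc, the histamine-forming enzyme, responded to LPS by 2.83 ± 0.11 in control and 3.53 ± 0.11 in silenced cells (interaction 0.70 ± 0.16, adjusted p = 0.184). Ass1, which regenerates arginine for nitric oxide synthesis, held 0.32 ± 0.34 and 1.60 ± 0.16 FPKM after LPS (1.15 ± 0.29, adjusted p = 0.225). Only its silenced libraries at 4 h reached an FPKM of 1 (1.46, 1.77 and 1.57), against at most 0.71 in control libraries. Ass1 thus passed the filter through the group in which it is high, which favoured a positive value. It is counted in this list and in the lipid mediator list. Nos2, the inducible nitric oxide synthase, had an interaction of 0.49 ± 0.25 that was -0.03 with a pseudocount of 0.1.

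Inflammasome genes had 12 of 14 tested members positive (median 0.28, 4 positive at an unadjusted p under 0.05, 0 called), among them Casp8, the apical death protease (0.37 ± 0.14, adjusted p = 0.362). Antigen presentation and costimulation genes had 10 of 15 positive (median 0.19, 4 positive at an unadjusted p under 0.05, 0 called), among them the chaperone Tapbp (0.35 ± 0.15) and B2m, the light chain of MHC class I (0.31 ± 0.14). The antigen presentation median was 0.07 without silenced replicate 3 at 4 h, and 0 of its members were at an unadjusted p under 0.05 in 6 of the 12 fits without 1 library (for inflammasome genes, 1 to 5 members). Lipid mediator and nitric oxide genes had 10 of 21 positive (median -0.04), with 4 positive and 1 negative at an unadjusted p under 0.05 and 0 called. The negative one was Nox1. Nox1, an NADPH oxidase, was lower in silenced cells at both times, 1.19 ± 0.27 and 0.46 ± 0.09 FPKM at 0 h and 9.79 ± 1.86 and 3.06 ± 0.66 FPKM at 4 h (interaction -0.83 ± 0.23, adjusted p = 0.272). The silenced mean was 38.6% of the control mean at 0 h and 31.3% at 4 h. At its low untreated level the added 1 understates the gap at 0 h. The interaction of Nox1 was -0.45 at the weakest among the alternatives that keep all libraries.

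**Figure D4:**
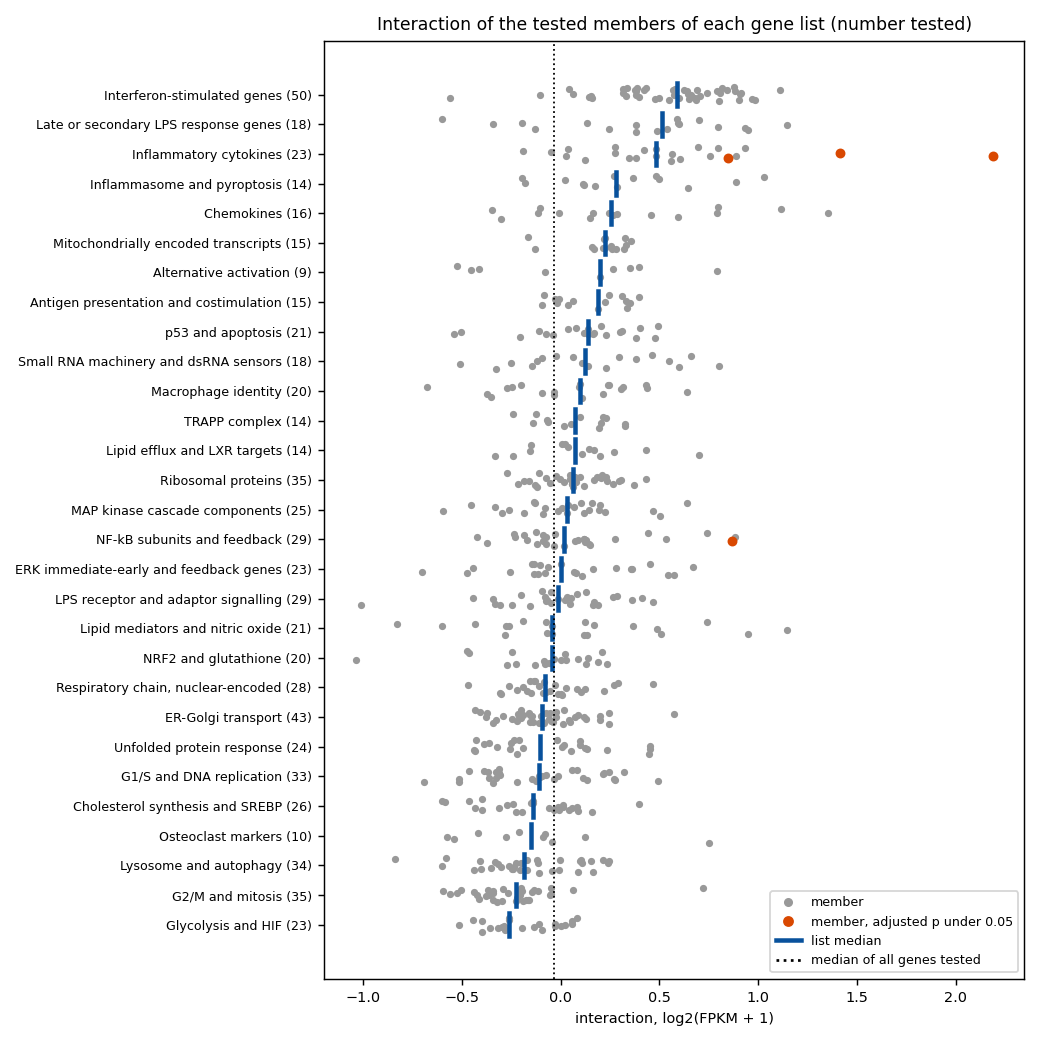
Interaction (log2(FPKM + 1) scale) of each tested member of the 29 gene lists with at least 3 tested members, ordered by list median (bars); the dotted line is the median of all 13078 genes and filled points mark called genes. Interferon-stimulated genes (0.59), late response genes (0.51) and cytokines (0.48) have the highest medians, and glycolysis (-0.26) and G2/M genes (-0.23) the lowest.

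Interferon-stimulated genes had the highest list median, without a call. Of 50 tested members 48 were positive (the same number under each of the 4 other scalings), the median was 0.59, and 14 were positive and 0 negative at an unadjusted p under 0.05. LPS raised all 50 in control and in silenced cells (15.3% and 13% of all genes rose). The silenced-to-control median was -0.47 without LPS and 0.13 after it, so the larger of the gaps lay in untreated cells. The mean log2(FPKM + 1) over the list at 0 h was 3.11, 3.08 and 2.30 in control and 2.52, 2.56 and 2.22 in silenced libraries. Control replicate 3 thus lay below 2 of the 3 silenced libraries. At 4 h the means were 6.05, 5.93 and 6.29 in control and 6.10, 6.18 and 6.41 in silenced libraries, which overlap. Replicate 3 was the lowest library of both groups at 0 h and the highest of both at 4 h. Within each replicate number the silenced library was the lower at 0 h and the higher at 4 h. The labels do not say whether equal numbers mark pairs. The list median was 0.90 without control replicate 3 and 0.43 without control replicate 1 at 0 h. The 14 members at an unadjusted p under 0.05 became 38 without control replicate 3 and 6 without control replicate 2 at 0 h, and 28 with library weights.

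Irf7, the transcription factor that amplifies interferon production, held 9.14, 7.22 and 5.63 FPKM in control and 4.28, 4.59 and 3.54 FPKM in silenced libraries at 0 h. At 4 h it held 28.2, 26.7 and 34.9 FPKM and 37.9, 31.3 and 36.5 FPKM. The groups were apart at 0 h and overlapped at 4 h (interaction 0.92 ± 0.22, adjusted p = 0.214). Oas3, a sensor of double-stranded RNA, was lower in silenced cells at both times, 26.7 ± 4.59 and 14.96 ± 0.74 FPKM at 0 h and 65.4 ± 4.74 and 56.1 ± 0.20 FPKM at 4 h (interaction 0.57 ± 0.16, adjusted p = 0.272). The list of small RNA machinery and double-stranded RNA sensors, which shares 4 members with the interferon list, had 11 of 18 positive (median 0.12, 0 called). In it Ago1, an argonaute, differed by -0.73 without and -0.34 with LPS (interaction 0.38 ± 0.15, adjusted p = 0.371).

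Trafficking genes, the field in which the TRAPP complex acts, showed small values. Of 14 tested TRAPP genes 9 were positive (median 0.07), with 0 called and 0 at an unadjusted p under 0.05, and the smallest p belonged to Trappc1 (0.33 ± 0.17) and Trappc8 (0.21 ± 0.14). Of 43 tested ER-Golgi transport genes 13 were positive (median -0.10, 6 negative at an unadjusted p under 0.05, 0 called). The coat protein gene Copb2 responded to LPS by 0.18 ± 0.07 in control and -0.19 ± 0.07 in silenced cells (interaction -0.38 ± 0.10, adjusted p = 0.266), and the cargo receptor gene Tmed10 had -0.34 ± 0.10 (adjusted p = 0.2997).

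The unfolded protein response list had 11 of 24 positive (median -0.10, 3 negative at an unadjusted p under 0.05), led by Dnajc3 (-0.44 ± 0.13, adjusted p = 0.292) and the disulfide isomerase Pdia6 (-0.44 ± 0.15). Lysosome and autophagy genes had 9 of 34 positive (median -0.19, 7 negative and 1 positive at an unadjusted p under 0.05, 0 called). Atp6v1h, a subunit of the lysosomal proton pump, held 5.4 ± 0.15 and 6.56 ± 0.33 FPKM in control and silenced cells at 0 h and 8.52 ± 0.33 and 7.29 ± 0.26 FPKM at 4 h. It was thus higher in silenced libraries without LPS and lower in them after it, without overlap (interaction -0.44 ± 0.11, adjusted p = 0.214). The lysosomal median ran from -0.25 to -0.11 when 1 library was left out, nearest 0 without control replicate 2 at 0 h.

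Cholesterol synthesis genes had 8 of 26 positive and a median of -0.14, with 5 negative and 1 positive at an unadjusted p under 0.05 and 0 called. Cyp51, a sterol demethylase, held 15.5 ± 1.54 and 23.2 ± 0.54 FPKM at 0 h and 13.6 ± 1.35 and 14.5 ± 1.59 FPKM at 4 h, so a gap without LPS was followed by overlap (interaction -0.47 ± 0.15, adjusted p = 0.2997). Msmo1 had the same course (-0.31 ± 0.10, adjusted p = 0.325). Lipid efflux genes had a median of 0.07 with 10 of 14 positive.

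Glycolysis and HIF genes had 5 of 23 tested records positive (Aldoa has 2 records) and the lowest list median, -0.26, which was -0.05 without silenced replicate 3 at 0 h. The glycolytic enzymes Gpi1 (-0.51 ± 0.18, adjusted p = 0.330) and Pkm (-0.45 ± 0.16, adjusted p = 0.348) had the smallest p, and 4 members were negative at an unadjusted p under 0.05. Nuclear-encoded respiratory chain genes had 10 of 28 positive (median -0.08). Among them Sdha, a subunit of succinate dehydrogenase, held 52.0 ± 1.85 and 54.7 ± 1.97 FPKM at 0 h and 64.5 ± 3.71 and 48.6 ± 0.84 FPKM at 4 h (-0.47 ± 0.09, adjusted p = 0.138). The NRF2 target Srxn1, sulfiredoxin, held 94.2 ± 14.7 and 58.1 ± 11.4 FPKM after LPS (-1.04 ± 0.27, adjusted p = 0.239), in a list with 9 of 20 positive and a median of -0.05.

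Cell cycle genes, which fall when macrophages are activated, had lower interactions in the mitotic list than in the replication list. Of 35 tested G2/M genes 2 were positive (median -0.23), with 0 called and 0 at an unadjusted p under 0.05. LPS lowered 34 of the 35 in control and 35 of the 35 in silenced cells (32.9% and 35.5% of all genes fell). The list mean at 4 h was 4.17, 4.30 and 3.75 in control and 4.11, 4.02 and 3.43 in silenced libraries, which overlap, and the list median was -0.06 with 12 positive members without silenced replicate 3 at 4 h. Of 33 G1/S genes 11 were positive (median -0.11), with 3 negative at an unadjusted p under 0.05, among them Ccnd1, cyclin D1 (-0.33 ± 0.12, adjusted p = 0.355). The G1/S median was 0.01 with 17 positive members without silenced replicate 3 at 4 h. Without control replicate 3 at 4 h it was -0.24, and 8 members were negative at an unadjusted p under 0.05, as were 8 of the G2/M list. The difference between the lists was not tested. The p53 and apoptosis list had 15 of 21 positive (median 0.14), with Ccng1 at -0.54 ± 0.12 (adjusted p = 0.163) and Bbc3, which encodes the death activator PUMA, at 0.48 ± 0.17 (adjusted p = 0.342).

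Markers of cell state gave no call. Macrophage identity genes had 11 of 20 tested records positive (median 0.10, 1 positive at an unadjusted p under 0.05). That gene was Cebpb, a myeloid transcription factor, which held 20.3 ± 2.92 and 21.8 ± 1.45 FPKM at 0 h and 17.4 ± 5.31 and 29.1 ± 2.22 FPKM at 4 h (0.64 ± 0.24, adjusted p = 0.367). The high-affinity Fc receptor gene Fcgr1 had 0.44 ± 0.21 (adjusted p = 0.460). Osteoclast markers had 2 of 10 positive (median -0.15), with the protease Mmp9 at 0.75 ± 0.23 (adjusted p = 0.2997) and the phosphatase Acp5 at -0.28 ± 0.15. Alternative activation markers had 5 of 9 positive (median 0.20), with the transglutaminase Tgm2 at 0.35 ± 0.21, and the median was -0.08 without silenced replicate 2 at 4 h.

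Mitochondrially encoded transcripts, a sign of RNA composition, moved with the interaction. Of 15 tested 13 were positive (median 0.23, 4 positive at an unadjusted p under 0.05, 0 called), against 10 positive and a median of 0.05 at the lowest among the 4 other scalings. mt-Co1 held 9877 ± 290 and 8734 ± 365 FPKM at 0 h and 7285 ± 543 and 8075 ± 563 FPKM at 4 h (0.33 ± 0.11, adjusted p = 0.326). Their share of all FPKM was 17.1% to 18.7% in control and 15.3% to 16.8% in silenced libraries at 0 h, and 12.2% to 13.1% and 12.8% to 13.8% at 4 h. The part of this shift in the other results was not tested. With libraries rescaled to a common sum over genes that are not mitochondrially encoded, the interaction was -1.601 for Dynll1 and -0.59 for Gm26377, each with adjusted p = 0.0507, and the other 6 genes were called. Ribosomal protein genes had 24 of 35 positive (median 0.06), with Rps7 at 0.30 ± 0.10 and Rpl6 at -0.27 ± 0.11.

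**Figure D5:**
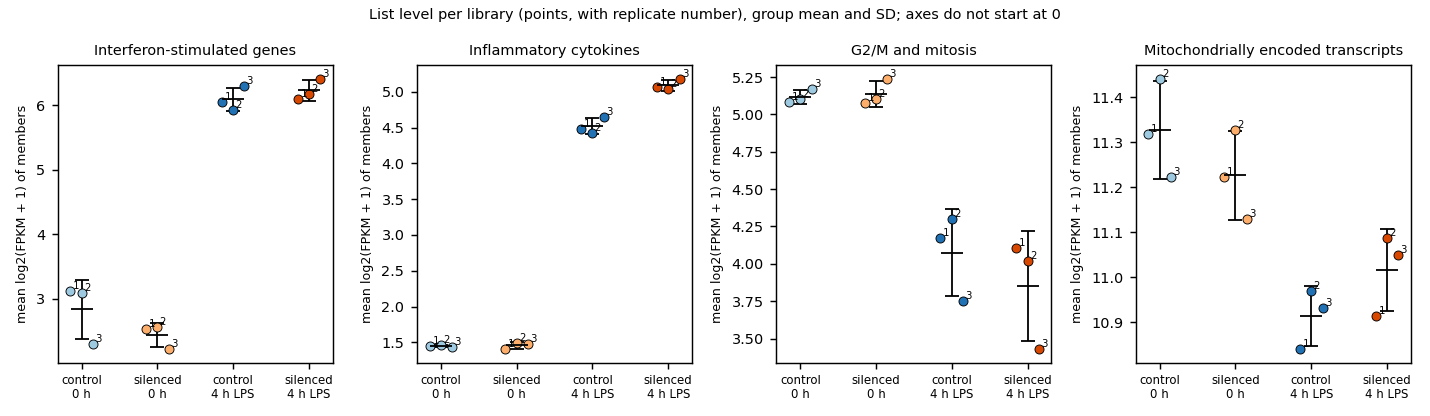
Mean log2(FPKM + 1) of the tested members of 4 lists in each library (points with replicate number), with the group mean and SD over 3 libraries; axes do not start at 0. Control replicate 3 at 0 h (2.30) lies among the silenced libraries for interferon-stimulated genes, cytokines separate silenced from control libraries only at 4 h, and replicate 3 is the lowest library of both 4 h groups for G2/M genes (3.75 and 3.43).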

How the data were processed

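Gene FPKM values for 53801 Ensembl gene records in 12 libraries were used as deposited by the authors. HISAT2, StringTie and the build GRCm38 are named, with no version, in the submitters' processing notes, and the libraries were strand-specific per the labels' protocols. Annotation release, strand setting and treatment of multi-mapped reads: not given in the sources used here. Fragment numbers could not be recovered: in genes with 1 transcript, between 3.30% and 8.87% of the low values fell within 1% of a multiple of the best step, so the depth is unknown and no count test was run. Libraries held 11672 to 12351 genes at FPKM of 1 or more, with Spearman correlations over genes of 0.918 to 0.925 within groups.

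The 13078 genes that reached an FPKM of 1 in 3 or more libraries were tested with limma 3.58.1 in R 4.3.3 on log2(FPKM + 1), which understates changes of low genes. The fit had 1 mean per group, 8 residual degrees of freedom, an intensity trend, 2-sided tests and Benjamini-Hochberg adjustment over all genes. The scripts were tested on simulated data. Coordinates come from GENCODE M21 (53620 of 53801 IDs matched) and promoter sequences from RefSeq (GRCm38.p6, 6 of 7 genes matched). Symbols turned into dates (27) were replaced by Ensembl ID.

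The comparison, the 34 gene lists (745 of 746 genes in the table; 29 lists with at least 3 tested members) and the named genes were chosen with earlier results of these data known. Named were 16 fixed genes including Trappc4, the 12 strongest called genes per direction with an established symbol and a group mean of 5 FPKM or more, filled to 12 by smallest p, and per list up to 4 called members or the 2 with the smallest p. Tlr4, Ccl2, Gm26377 and the overlapping genes Eef1a1 and Gm15564 were named after their values were seen. Alternatives tried: no filter or a filter at FPKM of 5, a pseudocount of 0.1, 4 other scalings, the replicate number as a block, no intensity trend, library weights, a log2 difference of at least 1 and leaving out each library. Of the genes the rule names 1 is counted but not reported here.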

Additional observations from a re-analysis of the deposited data

Results flagged for a closer look

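The difference between the LPS responses of silenced and control cells was itself tested in limma, and it passed adjustment for 8 genes. The LPS response was higher in silenced cells for Csf2 (2.19 on the log2 scale), Tnfsf15 (1.42), Kpna1 (0.98), Zc3h12a (0.87) and Tnf (0.85). It was lower in silenced cells for Dynll1 (-1.61), Gas2l3 (-1.54) and Gm26377 (-0.59). No test for single deviating libraries was run within the groups of 3.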

How the results depend on the processing

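The count of 8 called interactions became 5 with a pseudocount of 0.1, 4 without the intensity trend, 46 with library weights (13 positive, 33 negative) and 4 when a log2 difference of at least 1 was also required. Leaving out 1 library gave 0 to 20 calls. With the replicate number as a block 10 genes were called, 6 of them among the 8. Correlations of the deviations from group means ran from -0.03 to 0.19 over 18 same-numbered pairs. Over differently numbered pairs they ran from -0.13 to 0.13. Of the 18 pairs 3 were over 0.1, each between libraries numbered 3. These were control with silenced at 0 h (0.13), control at 0 h with control at 4 h (0.14) and control with silenced at 4 h (0.19). The labels do not say whether equal numbers mark pairs, and the main fit did not take them as pairs. The positive share of calls was 62.5%, against 57.1% with a common sum, 83.3% with a common sum without mitochondrially encoded genes, 83.3% with median-ratio scaling and 71.4% with quantile normalization. All 8 genes kept their direction under the alternatives that include both times. A fit of the 6 LPS libraries alone gives only the difference at 4 h, which was -0.06 for Kpna1 and 0.03 for Gas2l3. Reversed values were those of Lipg (-0.17) and Nos2 (-0.026) with a pseudocount of 0.1, and of Egr1, which ran from -0.077 to 0.22 when 1 library was left out; none of these was called. LPS counts, 6300 in control and 6337 in silenced cells, stayed within 1.5 times under each alternative. Their share of higher calls was 31.7% and 26.8%, against 53.2% and 51.5% with median-ratio scaling and 42.6% and 40.2% with quantile normalization. Median-ratio scaling moved the median LPS response of all genes from -0.17 to 0.03 in control and from -0.21 to 0.02 in silenced cells. The cause of these shifts was not tested. Without fragment counts, no limit from depth can be given for genes listed at 0.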
